A study of Homo sapiens with 72 samples.

Results

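GDNF, the gene of glial cell line-derived neurotrophic factor, was followed in IMR-90 cells, a strain of normal human lung fibroblasts, after an α-particle exposure that reached only some of the cells of a dish. It is 1 gene among the 30142 gene names on the array, and 4 of the 41000 probes carry its name. The gene was chosen by its measured signal on these same arrays. By 1 of these 4 probes, A_32_P377880, irradiated arrays lay above all bystander arrays at some of the times. By a brighter probe, A_24_P376451, irradiated and bystander arrays overlapped at every time. The remaining probes were well above background on 0 of 72 arrays. Because of this choice, the differences of GDNF between the 3 treatments are given as a description, with no test. Genes listed by their role in its pathway were tested, and these lists too were drawn up with earlier results of these data known.

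Total RNA was hybridised to 72 one-colour whole-genome arrays, 1 for each of 3 treatments at 6 times from 0.5 to 24 h in 4 experiments. Irradiated cells sat on a thin Mylar base that 0.5 Gy of helium ions crossed, bystander cells sat on thicker Mylar that stopped the particles in the same contiguous cell layer, and controls were sham-irradiated dishes taken at the same time. The experiments were independent, and the dishes of 1 experiment came from 1 pool of cells, so differences were taken within an experiment. At 0.5 h the scanner files and the authors' table number experiments 3 and 4 in opposite ways, and it is not known which is right, so experiment 3 or 4 at 0.5 h may be the other one of the later times. Each array read the RNA of a whole dish part, so fewer expressing cells and less RNA per cell cannot be told apart. Of the spots on an array, 65.7 to 76.9% were well above background, and the number of arrays limits the precision of every value. All 9 fibroblast markers, such as COL1A1, COL1A2 and VIM, were well above background on 72 of 72 arrays. Of the markers listed for other cell types, 3 of 5 leukocyte (CD14, CD3E and CD68), 3 of 5 endothelial (VWF, TEK and KDR), 3 of 6 epithelial (KRT14, KRT19 and SFTPC) and 2 of 5 glial genes (GFAP and MBP) were so on 72 of 72 arrays as well, the brightest being TEK with a mean log2 signal of 12.9. Of the rest, PTPRC was so on 1 array, PECAM1 on 2, CDH5 on 12, EPCAM on 44, KRT5 on 1, SOX10 on 2 and S100B on 0. CDH1 was so on 1.2 of 72 arrays, with a mean log2 signal of 2.48. That count is not whole because the flag was averaged over the spots of a probe. The part of other cell types in the values below was not tested.

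GDNF is a secreted ligand, a distant member of the TGF-β superfamily. It binds the co-receptor GFRA1, and the complex activates the receptor tyrosine kinase RET, which passes the signal to adaptors and on to the ERK and PI3K pathways. NCAM1 can serve as another receptor. GDNF is known for keeping dopaminergic and motor neurons alive and for guiding the growth of the kidney and of the enteric nervous system. Its relatives are neurturin (NRTN), artemin (ARTN) and persephin (PSPN).

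The 4 probes have different sequences and did not give the same answer, so the sequences are shown first. GDNF lies on the minus strand of chromosome 5, from 37812677 to 37840041 in GRCh38.p14. Probe A_24_P376451, shown by its first 30 bases, crosses an exon junction, with the end of the upstream exon in lower case and the start of the downstream exon in capitals. In the RefSeq windows around GDNF start sites its first 10 bases fell at chr5:37835634-37835643, just before a GT, and its last 50 bases at chr5:37834773-37834822, just after an AG, with an ATG at bases 37 to 39 of the probe. Probe A_32_P377880, also shown by its first 30 bases, matched none of the 4 windows over 30 bases, and its place in the gene was not determined here. The file annotation ties both to an Ensembl transcript and ties A_24_P25544 and A_23_P167683, shown whole in lower case, to the RefSeq mRNA of GDNF.
A_32_P377880: tgctccaccaaatccacaaaagggtaaagt
A_24_P376451: aacagcaatgGTGCCGCCGCCGGACGGGAC
A_24_P25544: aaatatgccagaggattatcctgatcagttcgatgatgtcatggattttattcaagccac
A_23_P167683: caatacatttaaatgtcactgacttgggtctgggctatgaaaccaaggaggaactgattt

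Both probes tied to the Ensembl transcript were well above background on 72 of 72 arrays. Both probes tied to the RefSeq mRNA were well above background on 0 of 72 arrays and failed the filter on dim probes, so they gave no level. Their weaker flag, a signal positive and different from background, was set on 7 arrays each. For A_24_P25544 those were 5 irradiated and 2 bystander arrays, with a highest signal of 7.72, and for A_23_P167683 5 irradiated, 1 bystander and 1 control array, with a highest signal of 14.6. Of the 2 probes with a level on every array, A_24_P376451 is the brighter, and its irradiated and bystander arrays overlapped at all 6 times. The account below follows A_32_P377880, which was taken after its values were seen because its irradiated arrays lay above all bystander arrays at 2, 4 and 6 h, and gives A_24_P376451 beside it. The share of all probes whose groups did not overlap is not given, so each lack of overlap below is a description only. Over the 72 arrays the signals of these 2 probes had a Pearson r of -0.02, or -0.24 after the mean of the 3 arrays of each experiment and time was taken off, where arrays of 1 experiment share cells and handling.

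At 0.5 h A_32_P377880 was higher in both exposed groups and did not separate them. In experiments 1 to 4 the log2 signal, with every array scaled to the same 75th percentile, was 7.54, 7.52, 7.90 and 8.15 in controls. It was 8.79, 8.86, 9.01 and 8.44 in irradiated cells. It was 8.89, 8.93, 9.03 and 8.40 in bystander cells. Both exposed groups lay above every control array and overlapped each other. The mean difference from control was 1.00 ± 0.49 (SD, n = 4 experiments) in irradiated and 1.04 ± 0.54 in bystander cells, 2.00-fold and 2.05-fold, and the difference between them was -0.04 ± 0.06. Without scaling that difference was 0.071, with normexp background correction -0.25 and with slide as a block -0.16.

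By 1 h the bystander cells had begun to fall behind. Controls gave 7.84, 7.55, 8.07 and 7.81, irradiated cells 8.26, 8.28, 9.18 and 9.60, and bystander cells 7.89, 7.78, 8.32 and 9.104. Irradiated arrays lay above all controls, by 1.01 ± 0.59. They were higher than the bystander array of their experiment in 4 of 4, by 0.56 ± 0.21, although these groups overlapped. The bystander difference from control, 0.46 ± 0.57, was mostly experiment 4. It was 0.17 without that experiment and up to 0.59 with another left out.

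The mean difference between irradiated and bystander cells was larger at 2 h than at the other 5 times, except with normexp background correction, which gave 1.10 at 2 h and 1.47 at 4 h. Controls gave 6.96, 7.15, 7.70 and 7.34. Irradiated cells gave 8.78, 8.96, 10.14 and 10.19. Bystander cells gave 7.14, 7.04, 8.07 and 8.29. All 4 irradiated arrays stood above all bystander and control arrays, and bystander and control arrays overlapped. Irradiated cells exceeded bystander cells by 1.64, 1.92, 2.07 and 1.90 in the 4 experiments, a mean of 1.88 ± 0.18 or 3.68-fold, although the level itself was higher in experiments 3 and 4 in both. Against control the difference was 2.23 ± 0.51 in irradiated cells (4.69-fold) and 0.35 ± 0.45 in bystander cells. The latter was 0.15 to 0.50 with 1 experiment left out, lowest without experiment 4, and 0.08 without scaling and 0.73 with normexp.

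At 4 h the picture was the same, with irradiated cells at 9.27, 9.36, 9.52 and 9.15. Bystander cells gave 7.80, 7.79, 7.81 and 7.03, and controls 6.60, 6.79, 7.41 and 7.30. Irradiated arrays again did not overlap either other group, with a difference from bystander cells of 1.72 ± 0.28 (3.29-fold) and from controls of 2.30 ± 0.39 (4.91-fold). The bystander difference from control was 0.58 ± 0.66, higher in 3 of 4 experiments. It was 0.37 to 0.86 with 1 experiment left out, lowest without experiment 1, and 0.36 with normexp and 1.05 without scaling.

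The separation was smaller at 6 and 24 h. At 6 h irradiated cells gave 9.01, 8.88, 9.40 and 8.72, bystander cells 7.89, 8.33, 8.25 and 7.45, and controls 6.84, 6.95, 7.80 and 7.69. Irradiated arrays still lay above all others, by 1.02 ± 0.32 over bystander and 1.68 ± 0.49 over control cells. The bystander difference from control was 0.66 ± 0.71, or 0.42 to 0.96 with 1 experiment left out, lowest without experiment 2. At 24 h irradiated cells gave 8.67, 7.92, 9.77 and 8.87, bystander cells 7.53, 8.26, 8.81 and 7.96, and controls 7.10, 6.76, 8.60 and 7.15. All 3 groups overlapped at 24 h, though irradiated exceeded control in 4 of 4 experiments, by 1.40 ± 0.29. Irradiated exceeded bystander cells in 3 of 4, by 0.67 ± 0.68, and by 0.44 without scaling. With 1 experiment left out that difference was 0.51 to 1.01, highest without experiment 2, which went the other way. The bystander difference from control at 24 h was 0.73 ± 0.57, higher in 4 of 4 experiments. It was 0.48 to 0.91 with 1 experiment left out, lowest without experiment 2.

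**Figure D1:**
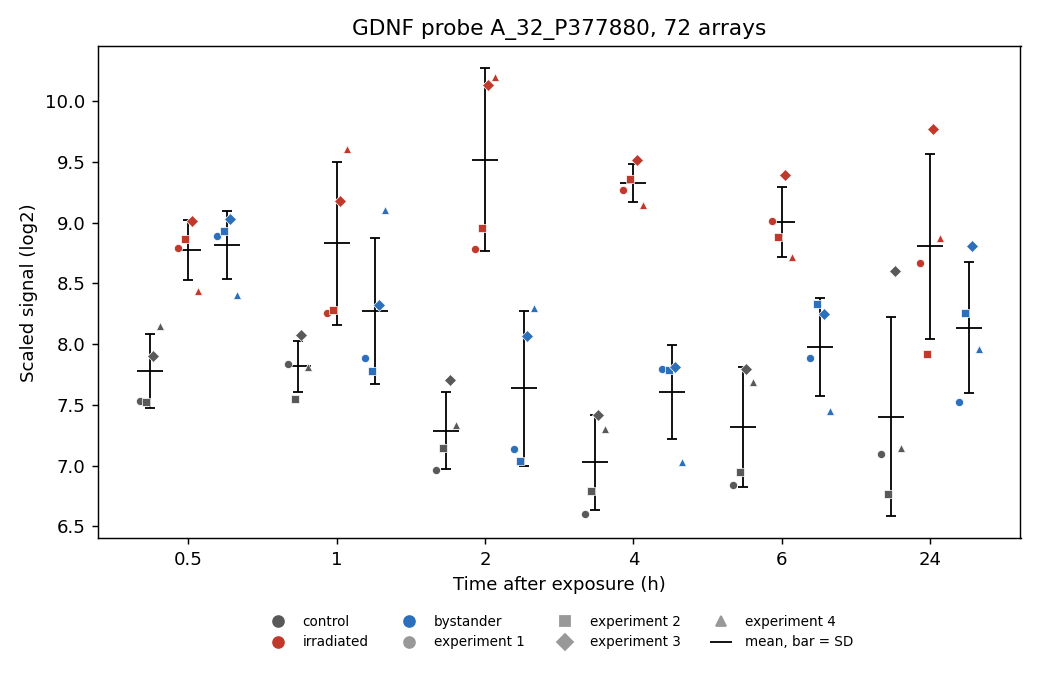
Scaled log2 signal of GDNF probe A_32_P377880 on the 72 arrays by time after exposure. Grey points are control, red irradiated and blue bystander arrays, point shapes mark the 4 experiments, and bars give mean and SD; red and blue coincide at 0.5 h, and the red points stand clear of both other groups at 2, 4 and 6 h.

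Ordered by mean level, the 18 conditions ran from irradiated cells at 2 h (9.52 ± 0.75) and 4 h (9.32 ± 0.16) down to controls at 4 h (7.03 ± 0.39). All 6 irradiated means lay in the upper 7 of the 18, joined by bystander cells at 0.5 h (8.81 ± 0.28), and all 6 control means lay below bystander cells at 6 h (7.98 ± 0.40), with bystander cells at 2 and 4 h among them. Of the 17 gaps between neighbours in this order, 16 were within the larger SD of the pair, the exception being irradiated cells at 4 h and 6 h. Time points lay on different slides, so the order across times is a description and was not tested.

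The arrays that shared a slide gave similar differences. Each time point used 3 slides, and 3 of the 4 irradiated and bystander pairs at each time lay together on 1 slide. Within slides, irradiated exceeded bystander cells by 1.64 to 1.92 at 2 h, mean 1.82, and by 1.47 to 2.11 at 4 h, mean 1.72. Among the 25236 probes that passed the filter, ordered from the most positive value of this difference, A_32_P377880 stood at place 15513 at 0.5 h, 72 at 1 h, 2 at 2 h, 6 at 4 h, 22 at 6 h and 63 at 24 h. The probes around it at 2 h were for BBC3, a pro-apoptotic p53 target, above it with 1.94, and for BTG2, an antiproliferative p53 target, below it with 1.67. Of the 2 other BBC3 probes 1 gave 1.19, and the brightest, used in the list below, gave -0.02. This comparison called few probes at all by limma at an adjusted p below 0.10: 0.0436% of the array at 2 h, 0.00793% at 4 h and 0% at 0.5, 1, 6 and 24 h. At the latter times 541, 1250, 381 and 101 probes had an unadjusted p below 0.05. The fit used 1 spread per probe shared by the 3 treatments, controls included, so few calls do not show that differences were absent.

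**Figure D2:**
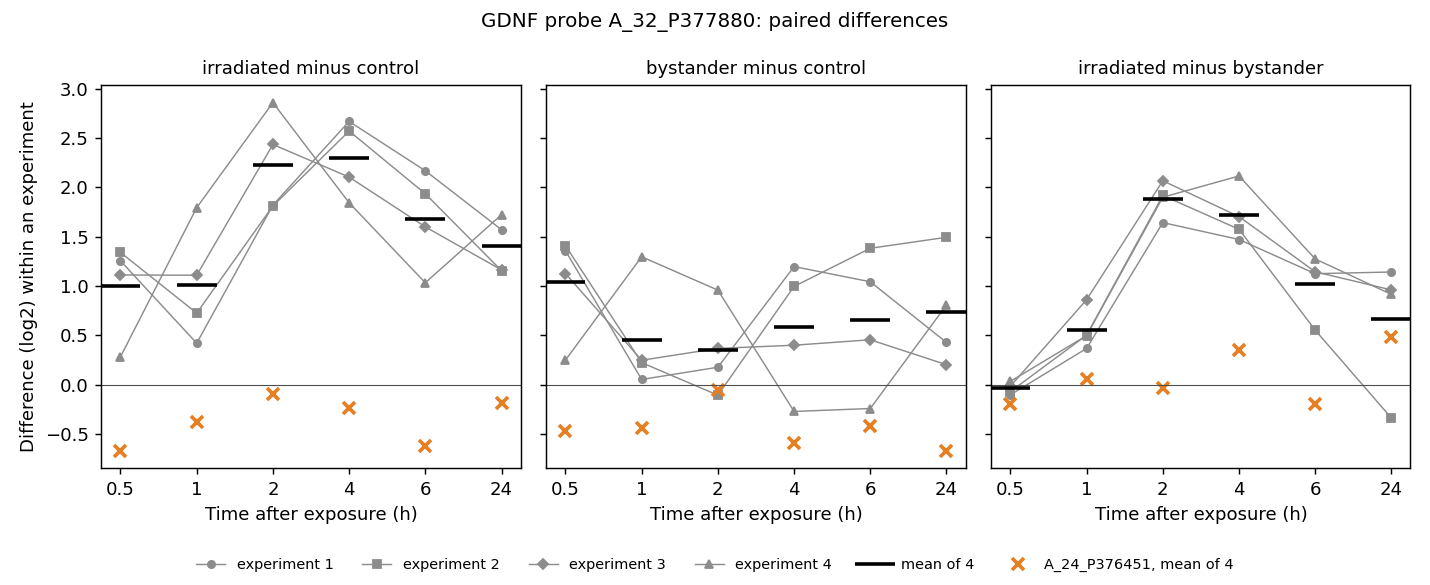
Differences in log2 signal within an experiment by time, for irradiated minus control, bystander minus control and irradiated minus bystander. Grey lines join the 4 experiments of A_32_P377880, black dashes are their means, and orange crosses are the means of A_24_P376451; the irradiated minus bystander mean of A_32_P377880 goes from -0.04 at 0.5 h to 1.88 at 2 h, while that of A_24_P376451 is -0.03 at 2 h.

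Probe A_24_P376451 did not separate the groups at 2, 4 or 6 h. At 2 h it gave 11.30, 10.26, 11.57 and 11.71 in irradiated cells, 11.44, 10.47, 11.62 and 11.44 in bystander cells and 10.44, 10.38, 11.71 and 12.65 in controls. The 3 groups overlapped at this and every other time. Its difference between irradiated and bystander cells was -0.03 ± 0.21 at 2 h. At 4 h it was 0.36 ± 0.82, but 0.73 without experiment 2, 0.07 without experiment 4 and -0.15 without scaling. At 24 h it was 0.49 ± 0.28, higher in 4 of 4 experiments, and 0.25 without scaling. Its means were lower than control in both exposed groups at all 6 times, the lowest being -0.67 in irradiated cells at 0.5 h and in bystander cells at 24 h, with SDs over the experiments from 0.67 to 1.11. Single experiments set these values: without experiment 3 the irradiated mean at 0.5 h was -0.35, and without experiment 4 the bystander mean at 24 h was -0.35. Without experiment 4 the means at 2 h were above control, 0.20 in irradiated and 0.33 in bystander cells, and so was that of irradiated cells at 24 h, 0.09. The control arrays of experiments 1 to 4 averaged 10.69, 10.67, 12.09 and 12.46 over the 6 times (12.02 and 12.53 for the last pair with their numbers exchanged at 0.5 h), so the spread between experiments was larger than any mean difference between treatments. In experiment 4 the control array was above the irradiated array at all 6 times, and in experiment 3 at all but 4 h.

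**Figure D3:**
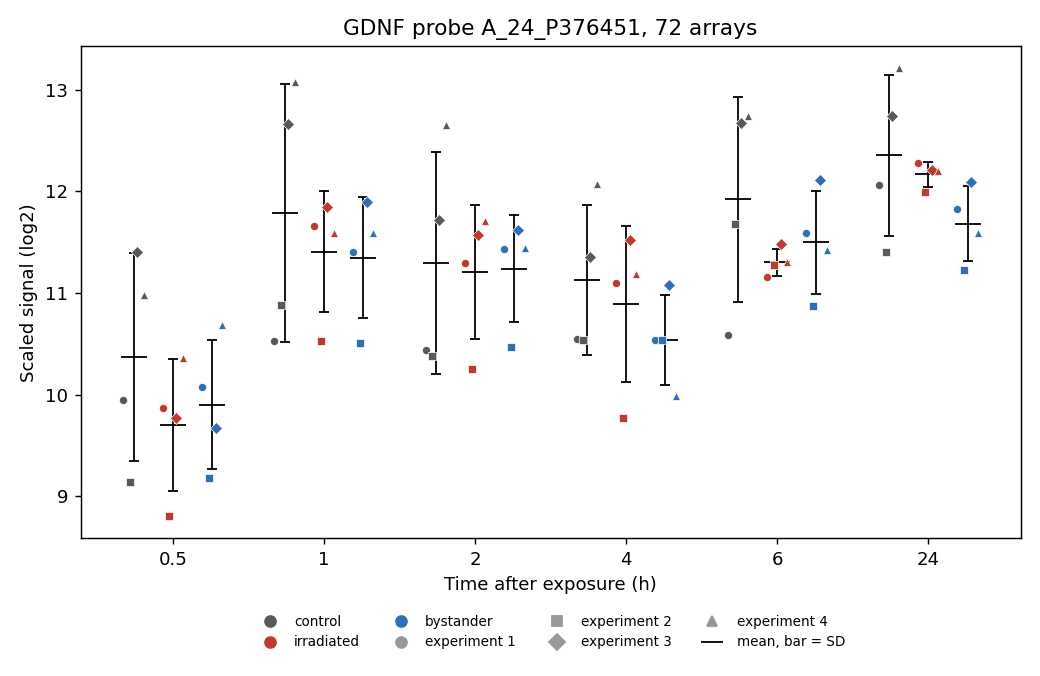
Scaled log2 signal of GDNF probe A_24_P376451 on the same 72 arrays, with colours, shapes and bars as for the other probe. Irradiated, bystander and control arrays overlap at all 6 times, and control arrays of experiments 3 and 4 are among the highest.

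Of the 10 genes whose signal was most like that of A_32_P377880, 6 are in the list of 14 p53 targets, drawn up with earlier results of these data known. Likeness was the Pearson r over the 72 arrays after the mean of the 3 arrays of each experiment and time was taken off, for 12849 genes, whose median r was -0.03. This probe was taken for the purpose after its values were seen. GADD45A, a stress-induced inhibitor of growth, had the highest r at 0.92, followed by CDKN1A, the cell cycle inhibitor p21, at 0.88, the nuclease gene AEN at 0.88, and MDM2, which marks p53 for degradation, at 0.87. PLK3 (0.87), C12orf5 (0.86), GDF15 (0.86), the death receptors FAS (0.84) and TNFRSF10A (0.82) and the stress factor ATF3 (0.81) completed the set. The lowest were BOC (-0.74), CTCF (-0.72) and HOXA5 (-0.69). Of 14 listed p53 targets the median r was 0.72, from -0.10 for PLK2 to 0.92, and of 13 measured NF-κB targets it was 0.64, from -0.43 for IRF1 to 0.69 for CXCL1. The arrays of an experiment and time share cells and handling, so these r values are a description.

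At 0.5 h the NF-κB targets had a median difference from control of 1.95 in irradiated and 1.87 in bystander cells, against -0.03 and -0.00019 over all probes, while the p53 targets had 0.24 and 0.28. Of the 13 NF-κB targets 12 were called higher and 1 lower in irradiated cells at 0.5 h, and 12 higher and 0 lower in bystander cells, where limma called 9.87% of probes in irradiated and 6.99% in bystander cells at an adjusted p below 0.10. Of the 14 p53 targets 4 were called higher in irradiated cells at 0.5 h (GDF15 1.36, GADD45A 1.28, PLK3 0.73 and MDM2 0.72) and 3 in bystander cells (GDF15 1.39, GADD45A 1.16 and PLK3 0.73), with 0 lower. Without experiment 2 none of these calls at 0.5 h held in either list, and without experiment 1 the bystander calls were 2 of 13 and 0 of 14. Without experiment 1 or 4 the p53 calls in irradiated cells were 1 and 2. With no filter, with slide as a block, without scaling and with no replicate block the p53 calls were 1, 1, 2 and 0 in irradiated and 1, 1, 1 and 0 in bystander cells, and the higher NF-κB calls were 7, 10, 10 and 5 in irradiated and 10, 9, 10 and 4 in bystander cells.

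Both lists also had members called higher than control in irradiated cells at later times. At 2, 4 and 6 h the NF-κB targets had medians of 0.49, 1.60 and 1.52 there, with 4, 10 and 10 of 13 called higher and 0, 1 and 0 lower, and the p53 targets had 0.77, 1.14 and 0.75, with 8, 8 and 7 of 14 higher and 0 lower, where 5.78, 0.999 and 10.5% of all probes were called. In bystander cells at those times the NF-κB medians were 0.60, 1.65 and 1.15, with 2, 10 and 3 called higher and 0, 1 and 0 lower, and the p53 medians 0.10, -0.05 and 0.07, with 1, 0 and 1 higher, against 0.218, 0.575 and 0.289% of all probes. At 4 h the NF-κB calls higher in irradiated cells were 1 without experiment 1, 5 without experiment 2, 1 with no filter and 1 with no replicate block, and those in bystander cells 1, 0, 0 and 2, and 2 with slide as a block. At 6 h those in irradiated cells were 5 without experiment 1, 4 with no filter and 1 with no replicate block, and the 3 in bystander cells were 0 without experiment 1, 2 or 4, with no filter, with slide as a block and with no replicate block, and 7 without experiment 3. At 2 h the NF-κB calls in both groups were 0 without experiment 1 or 2, with slide as a block and with no replicate block, and 7 in irradiated and 8 in bystander cells without experiment 4. Those in irradiated cells were also 2 without experiment 3 and 2 with no filter, and those in bystander cells 0 with no filter and 0 without scaling. At 2 h, 1 p53 target was called lower in irradiated cells without scaling. The p53 targets called higher in irradiated cells at 2 h were 4 without experiment 1 or 2, 5 without experiment 3, without scaling or with slide as a block, 12 without experiment 4 and 0 with no replicate block. Those at 4 h were 1 without experiment 1, 5 without experiment 2 or 3, 1 with no filter, 5 without scaling and 4 with no replicate block. Those at 6 h were 4 to 7 under all alternatives, and 1 target was called lower at 6 h without experiment 3. The single p53 calls in bystander cells at 2 and 6 h were 0 without experiment 1 or 2, without scaling, with slide as a block and with no replicate block. That at 2 h was also 0 without experiment 3 and that at 6 h without experiment 4 and with no filter, and there were 3 at 2 h without experiment 4. Without experiment 3 there were 2 higher and 1 lower at 6 h. At 4 h, where 0 were called, there were 3 without scaling and 2 without experiment 3. At 1 h 0 of either list were called, as of all probes, though with slide as a block 2 p53 targets were called in irradiated cells. At 24 h 3 p53 targets were called in irradiated cells, where 0.174% of all probes were, and these were 0 with any 1 experiment left out, without scaling, with slide as a block and with no replicate block, and 1 with no filter or normexp. A difference in time course between the lists was not tested.

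Between irradiated and bystander cells the NF-κB targets had medians from -0.18 to 0.10 over the 6 times, with 0 called. The p53 targets had medians of 0.83 at 2 h, 1.05 at 4 h and 0.72 at 6 h in that comparison, against -0.01, 0.02 and 0.02 over all probes, with 0 of 14 called by limma at 4 and 6 h, and 5 at 4 h with normexp. At 2 h, where 0.0436% of probes were called, 5 of the 14 were higher in irradiated than in bystander cells, namely BTG2 (1.67), CDKN1A (1.51), SESN1 (0.90), PPM1D (0.83) and PLK3 (0.78), with limma adjusted p between 0.012 and 0.066. These calls were 0 without experiment 1, 2 or 3, 0 with no replicate block and 0 with slide as a block, 1 without scaling, 2 with no filter, 6 with quantile normalization, 7 with normexp and 7 without experiment 4.

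**Figure D4:**
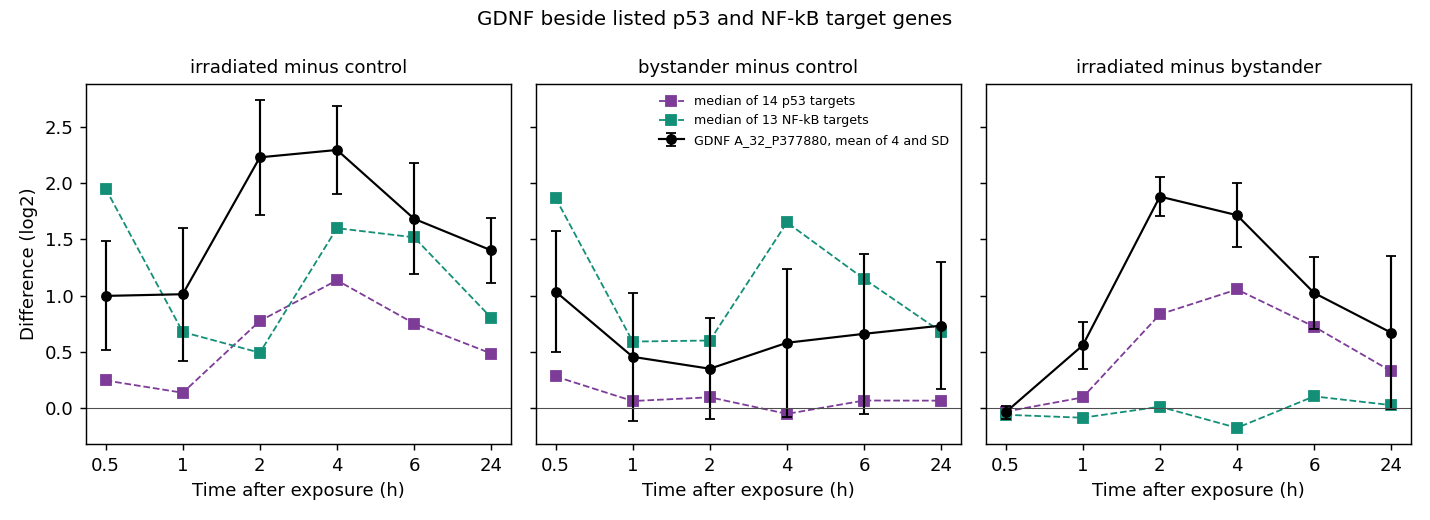
Log2 differences by time in the 3 comparisons for GDNF probe A_32_P377880 (black, mean and SD of 4 experiments), the median of 14 listed p53 targets (purple) and the median of 13 NF-κB targets (green). Between irradiated and bystander cells the black and purple lines are highest at 2 to 4 h and the green line stays between -0.18 and 0.10.

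The genes most like A_24_P376451 were others. C9orf62 (0.97), ZFPM1 (0.95), TMEM158 (0.95), OTUD7A (0.94), HRK (0.94), BAALC (0.93), GPSM3 (0.92), FOXQ1 (0.92), KLF16 (0.92) and AVP (0.91) were the 10 highest, and LRRC8C, ZNF670 and RBM25 the lowest, all at -0.87. The p53 targets had a median r of 0.10 to it and the NF-κB targets -0.33. The probes of those 10 genes held a median of 79.2% G and C, from 50 to 88.3%, against 43.3% over all probes that passed the filter and 55% in A_24_P376451 itself. For A_32_P377880, with 38.3% G and C, the 10 most alike held a median of 44.2%. The part of base composition in the level of either probe was not tested.

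Among the GDNF relatives ARTN and PSPN passed the filter, and limma called neither in any comparison. ARTN was lower than control in bystander cells at 4 h by 0.78 ± 0.23 (SE), in 4 of 4 experiments, with a limma adjusted p of 0.18. NRTN was well above background on 26 of 72 arrays and was not tested. RET, the signalling receptor, was well above background on at most 33 of 72 arrays for either of its probes, NCAM1 on at most 7 and GFRAL, the receptor of GDF15, on 0, so none of these was tested.

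Of the 6 receptors and co-receptors that passed, 1 was called lower in irradiated cells at 4 h and at 6 h, where 0.999% and 10.5% of all probes were called, and 1 in bystander cells at 0.5 h, where 6.99% were. None was called higher. GAS1, a membrane protein related to the GFRA co-receptors that can bind RET, fell in irradiated cells by 1.37 ± 0.30 (SE) on the log2 scale at 4 h and by 1.12 ± 0.31 at 6 h, with limma adjusted p of 0.085 and 0.072. Both calls were lost without experiment 1 or 4, that at 4 h also without experiment 3 and that at 6 h without experiment 2, and without experiment 4 the differences were -0.91 and -0.65. Its mean was lower than control at all 6 times in both exposed groups, by 0.55 to 1.37 in irradiated and 0.64 to 1.13 in bystander cells, and the bystander differences did not pass. GFRA1, the co-receptor of GDNF itself, fell in bystander cells at 0.5 h by 1.23 ± 0.37 (limma adjusted p = 0.099), lower in 3 of 4 experiments, and a second probe of the gene was also called. At 1, 2, 4, 6 and 24 h its bystander differences were -0.70, -0.07, -1.25, -0.20 and -1.34, none called, and those at 4 and 24 h were lower in 4 of 4 experiments. The call was lost under 8 of 10 alternatives, among them leaving out experiment 1, 2 or 4 (-1.08, -0.96 and -1.07), and with normexp background correction the difference was -0.29. In irradiated cells at that time its difference was -0.86 ± 0.37 with an adjusted p of 0.17, and irradiated minus bystander was 0.37 ± 0.37. GFRA2, GFRA3 and GFRA4, co-receptors of the other ligands, and SDC3, a heparan sulphate proteoglycan that binds GDNF, were called in no comparison.

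Over the 5 lists of ligands, receptors, RET adaptors, ERK targets and other neurotrophic factors, 51 genes were tested, GDNF left out. In irradiated cells 8 were higher and 0 lower at 0.5 h, 6 and 4 at 2 h, 2 and 1 at 4 h, 5 and 6 at 6 h, and 0 at 1 and 24 h. The share of all probes called in irradiated cells was 9.87% at 0.5 h, 0% at 1 h, 5.78% at 2 h, 0.999% at 4 h, 10.5% at 6 h and 0.174% at 24 h. In bystander cells 5 were higher and 1 lower at 0.5 h, 2 and 0 at 4 h, 1 and 0 at 6 h, and 0 at the other times, against 6.99%, 0% at 1 h, 0.218% at 2 h, 0.575% at 4 h, 0.289% at 6 h and 0% at 24 h of all probes. Between irradiated and bystander cells, where at most 0.0436% of all probes were called at any time, limma called 0 of the 51. With controls sharing in the spread of each fit, this does not show that these genes did not differ. An unadjusted limma p below 0.05 was found for 6 of the 306 gene and time pairs. These were 0, 3, 0, 1, 2 and 0 of the 51 genes from 0.5 to 24 h, against 541, 1250, 283, 326, 381 and 101 of all 25236 probes. The medians of the 51 genes lay between -0.12 and 0.08 in every comparison, near those of all probes. The 32 calls in irradiated cells were 6 without experiment 1, 7 without experiment 2 and 21 without experiment 3 or 4 (17 and 25 with their numbers exchanged at 0.5 h), and 7 with no filter, 19 with slide as a block and 1 with no replicate block. The 9 in bystander cells were 0 without experiment 1 or 2, 9 without experiment 3 and 12 without experiment 4 (6 and 15 with the latter numbers exchanged at 0.5 h), 18 with normexp, 2 with no filter, 2 with slide as a block and 0 with no replicate block.

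Among 17 RET adaptors and proximal signalling genes, irradiated cells had 1 higher at 0.5 h, where 9.87% of all probes were called, 1 higher and 2 lower at 2 h (5.78%), and 1 higher and 4 lower at 6 h (10.5%). Bystander cells had 1 higher at 0.5 h (6.99%) and 0 called at the other times. The 2 genes lower at 2 h each had another probe that was not called. Those probes gave -1.07 and -0.09, with limma adjusted p of 0.11 and 0.77. The first gene was also called at 6 h, where its other probe gave -1.07 (0.16). For another gene limma did not call the brightest probe at 0.5 h. A dimmer one was called there, with -0.50 in irradiated and -0.59 in bystander cells. PTPN11, the phosphatase SHP2, rose at 2 h by 0.45 ± 0.10 (SE) and at 6 h by 0.74 ± 0.16 (adjusted p = 0.058 and 0.043), but its 3 other probes gave 0.16 to 0.36 and were not called. PLCG1, a phospholipase that docks on RET, fell at 6 h by 1.12 ± 0.17 (adjusted p = 0.013). PIK3R1, a regulatory subunit of PI3K, fell at 6 h by 0.77 ± 0.20 (adjusted p = 0.062). IRS2, an insulin receptor adaptor, rose at 0.5 h by 0.73 ± 0.17 in irradiated and 0.64 ± 0.17 in bystander cells, by 1 of its 3 probes. Of the 6 calls of PTPN11, PLCG1, PIK3R1 and IRS2, that of PLCG1 held with each experiment left out and was lost only with no replicate block. The other 5 were each lost in 2 to 4 of the 4 fits with 1 experiment left out.

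Among 17 ERK targets and feedback inhibitors, 5 were higher and 0 lower in irradiated cells at 0.5 h, 3 and 2 at 2 h, 1 and 0 at 4 h, and 3 and 1 at 6 h, against 9.87, 5.78, 0.999 and 10.5% of all probes. Bystander cells had 2 higher at 0.5 h and 1 at 4 h, with 0 lower, against 6.99 and 0.575% of all probes. DUSP5, a phosphatase that inactivates ERK, rose in irradiated cells by 1.26 ± 0.31 (SE) at 0.5 h, 0.98 ± 0.26 at 2 h, 1.25 ± 0.27 at 4 h and 1.13 ± 0.26 at 6 h. In bystander cells it rose by 1.28 ± 0.31 at 0.5 h and 1.38 ± 0.27 at 4 h. IER3, an early response gene, rose at 0.5 h by 1.06 ± 0.17 in irradiated and 1.12 ± 0.17 in bystander cells. In irradiated cells it also rose at 2 h by 0.63 ± 0.14 (adjusted p = 0.062), a call lost under 7 of 10 alternatives, and the difference was 0.25 without scaling. Of the 3 Sprouty genes tested, feedback inhibitors of receptor kinases, SPRY2 rose in irradiated cells by 0.90 ± 0.26 at 0.5 h, 0.86 ± 0.24 at 2 h and 0.95 ± 0.23 at 6 h, and SPRY1 fell by 0.92 ± 0.26 at 2 h and 1.07 ± 0.26 at 6 h. SPRY4 was called in no comparison, with differences of 0.06 to 0.70 in irradiated cells over the 6 times. Of the 14 calls of DUSP5, IER3, SPRY1 and SPRY2, 2 held without experiment 1, 0 without experiment 2, 11 without experiment 3 and 6 without experiment 4, or 8 and 9 with the latter numbers exchanged at 0.5 h. Without experiment 3 the differences at 0.5 h were 0.83 in irradiated and 0.82 in bystander cells for DUSP5 and 0.54 for SPRY2. Without experiment 4 those at 2 h were 0.56 for SPRY2 and -0.56 for SPRY1.

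Among 9 other neurotrophic factors that passed, irradiated cells had 2, 2, 1 and 1 called higher at 0.5, 2, 4 and 6 h, against 9.87, 5.78, 0.999 and 10.5% of all probes. Bystander cells had 2, 1 and 1 at 0.5, 4 and 6 h, against 6.99, 0.575 and 0.289%, and 0 were called lower. LIF, an IL-6 family cytokine, moved most. It rose in irradiated cells by 1.38 ± 0.32 (SE) at 0.5 h, 0.92 ± 0.25 at 2 h, 1.54 ± 0.22 at 4 h and 1.57 ± 0.18 at 6 h, where the limma adjusted p was 0.0057. In bystander cells it rose by 1.41 ± 0.32 at 0.5 h, 1.82 ± 0.22 at 4 h and 1.61 ± 0.18 at 6 h, though its other probe passed in 2 of these 7 cases only. CLCF1, a ligand of the CNTF receptor, rose at 0.5 h by 0.55 ± 0.17 in irradiated and 0.56 ± 0.17 in bystander cells. MANF, a factor of the endoplasmic reticulum that protects dopaminergic neurons, rose in irradiated cells at 2 h by 0.49 ± 0.09. HGF was called in no comparison, with its largest difference in irradiated cells at 6 h, 0.50 ± 0.18 (adjusted p = 0.13). Of the 10 calls of LIF, CLCF1 and MANF, 1 held without experiment 1, 2 without experiment 2, 6 without experiment 3 and 5 without experiment 4, or 4 and 7 with the latter numbers exchanged at 0.5 h. The call of LIF in irradiated cells at 6 h held under 10 of 10 alternatives, but the other LIF probe gave 0.39 there with an adjusted p of 0.40. Without experiment 3 the irradiated differences at 0.5 h were 0.91 for LIF and 0.35 for CLCF1, and without experiment 4 that of LIF at 2 h was 0.56.

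**Figure D5:**
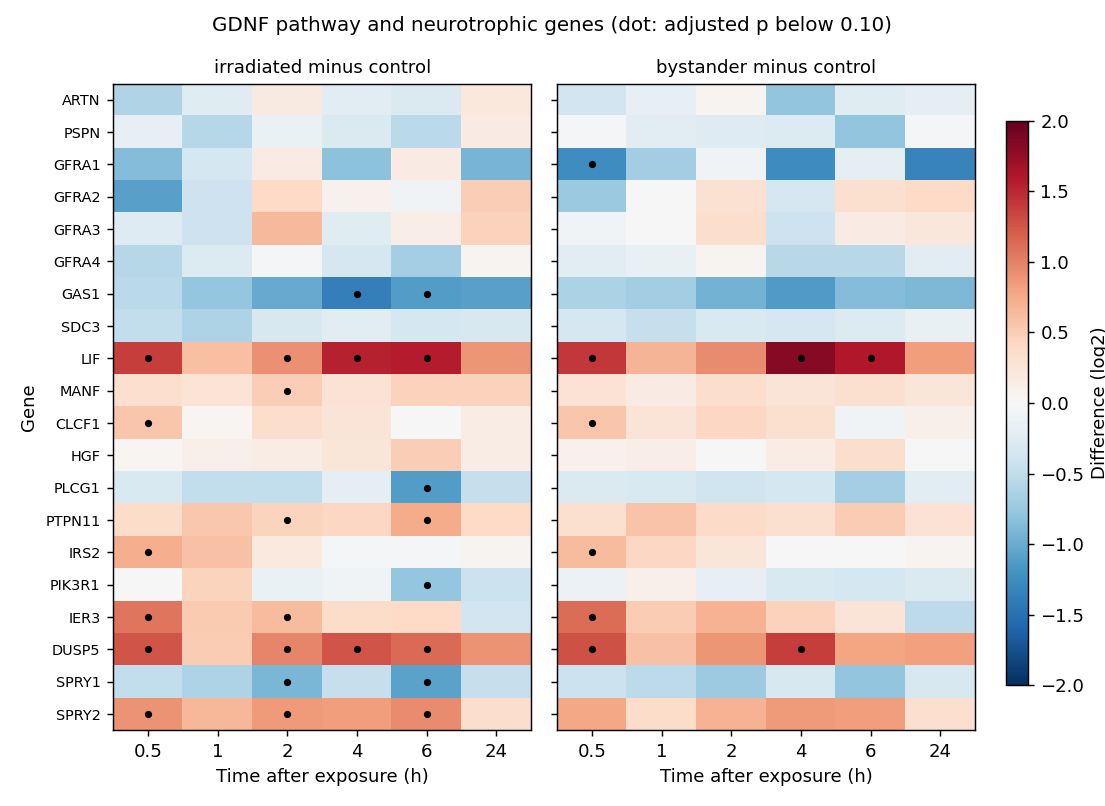
Log2 difference from control by time in irradiated and bystander cells for 20 named pathway and neurotrophic genes, red above and blue below control, with a dot where the limma adjusted p was below 0.10. LIF and DUSP5 are red and GAS1 is blue in both groups at all 6 times.

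Next to GDNF on chromosome 5, the 3 nearest measured genes below it were WDR70, NUP155 and CPLANE1, and the 3 above it EGFLAM, LIFR and OSMR. Between irradiated and bystander cells their differences ran from -0.29 (EGFLAM at 2 h) to 0.47 (LIFR at 1 h), and at 2 h from -0.29 to 0.18. Over the 18 comparisons of the 6 genes limma called 1 difference, EGFLAM in bystander cells at 0.5 h, where 6.99% of all probes were called, lower by 0.93 ± 0.27 (SE) with a limma adjusted p of 0.09. That call was lost with any 1 experiment left out (-0.67 to -1.19), and with normexp background correction the difference was 0.32. Of the 4 RefSeq windows around GDNF start sites, 0 held a p53 response element or a p53 half-site on either strand, and 1 held an NF-κB site. Such matches were in 0.0285, 6.63 and 5.91% of the 35116 windows of all genes.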

How the data were processed

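RNA of 72 IMR-90 samples (3 treatments, 6 times, 4 experiments) was hybridised by the authors to one-colour Agilent arrays, and the deposited scanner files hold the processed signal intensity of each spot from Feature Extraction 9.1.3.1, already background-subtracted. The authors' deposited table of log2 values equalled the unscaled log2 processed signal in 66 of 72 columns, and in the other 6 columns experiments 3 and 4 at 0.5 h were exchanged in all 3 treatments. Numbers of experiments follow the scanner files here. Pairs within a time are the same either way, but tallies by experiment over several times are not. At 0.5 h experiment 4 had its bystander array on another slide than its irradiated and control arrays, as experiment 3 had at the 5 later times, and the tallies were repeated with the numbers exchanged, a choice made after the data were seen.

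Non-uniform spots were set to missing, spots of a probe were averaged on 43376 non-control spots (41000 probes), and each array was scaled to the same 75th percentile before a floor of 5 and log2. Unscaled 75th percentiles ran from 9.19 to 11.2 (log2). Probes whose spots failed the background flag or the uniformity flag on over 10% of the arrays were dropped, and 25236 stayed. Per time, limma 3.58.1 in R 4.3.3 fitted treatment and experiment on 12 arrays with an intensity trend (6 residual degrees of freedom), and an adjusted p (Benjamini-Hochberg over all probes) below 0.10 was a call. Same-numbered samples came from 1 pool of cells, and in 68 of 72 pairs their deviations from group means correlated above 0.1 (medians by time 0.36 to 0.63, against -0.23 to -0.13 between numbers). Deviations from a group mean cancel out over the experiments, so positive values within numbers make those between numbers negative by construction.

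GDNF and all lists were chosen with earlier results of these data known. The genes named were every GDNF probe, every measured ligand and receptor, up to 4 genes with the lowest adjusted p in each other list, the 10 most and 3 least like GDNF, and the 3 nearest measured genes on each side. For a gene with several probes the brightest was used, which for GDNF is A_24_P376451, and values for A_32_P377880 were added after the data were seen. Alternatives covered scaling, background correction, the filter, slide, pairing and each experiment left out, and their use on the p53 and NF-κB lists and EGFLAM was added after the data were seen. Sequences came from the scanner files, windows and coordinates from RefSeq. The values of 2 listed markers of other cell types are not reported here.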

Additional observations from a re-analysis of the deposited data

Results flagged for a closer look

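In 2 of 36 groups of 4 arrays 1 array stood far from the others of its group, where chance gives about 1 in 20. For A_32_P377880 in bystander cells at 4 h, experiment 4 gave 7.03, and the gap to the nearest array was 0.964 of the range of the group. For A_24_P376451 in bystander cells at 2 h, experiment 2 gave 10.5, with a gap of 0.840 of the range. The cause was not tested.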

How the results depend on the processing

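For A_32_P377880 the sign of all 18 mean differences held under quantile normalization, normexp, slide as a block, pairs on 1 slide and each experiment left out. Without scaling, and in the authors' table, 1 of 18 changed sign, irradiated minus bystander at 0.5 h, which was 0.071 in both. That difference was -0.25 with normexp background correction and -0.16 with slide as a block. Irradiated minus control at 24 h was 1.00 without scaling and in the authors' table, and irradiated minus bystander at 4 h was 1.21 in both, where scaling moves every probe by the same amount, 0.51. With normexp (offset 50) irradiated minus control at 4 h was 1.83 and irradiated minus bystander at 2 h was 1.10, and the cause was not tested. The replicate block does not change the means. For A_24_P376451 the sign of 1 of 18 differences changed without scaling and in the authors' table, and that of 2, 1, 0 and 3 without experiments 1 to 4.

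The 32 calls of pathway genes in irradiated cells were 7 with no filter on dim probes, 19 with slide as a block, 1 with no replicate block, and 6 to 21 with 1 experiment left out. The 9 calls in bystander cells were 18 with normexp, 2 with no filter, 2 with slide as a block, 0 with no replicate block, and 0 to 12 with 1 experiment left out. Between irradiated and bystander cells 0 were called by limma under every alternative. Over the whole array and 6 times, calls in irradiated cells went from 6903 to 90 with no replicate block and to between 1334 and 5606 with 1 experiment left out, those in bystander cells from 2036 to 27 and to between 0 and 3823, and those between the exposed groups from 13 to 0 and to between 0 and 19. Of the 33 calls of single named genes, 31 held with quantile normalization, 26 with normexp, 15 without scaling, 15 with slide as a block, 6 with no filter, 1 with no replicate block, and 5, 5, 21 and 13 without experiments 1 to 4, with 0 reversed. With experiments 3 and 4 exchanged at 0.5 h the last pair of counts was 15 and 19. The calls of pathway genes without experiments 3 and 4 were then 17 and 25 in irradiated and 6 and 15 in bystander cells, and those over the whole array 2417 and 6697 in irradiated and 987 and 4346 in bystander cells. For the genes with the highest likeness to A_32_P377880, 8 to 10 of 10 were the same with 1 experiment left out. These 4 experiments limit every call, and probes not well above background, including 2 of GDNF, gave no level.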
